A study of Mus musculus with 32 samples.

Results

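The comparison described here set laser-captured endplate regions of old muscle (30m NMJ) against regions of fibre away from the endplate (30m xNMJ). Its members were the 8 libraries labelled 30m NMJ and the 8 labelled 30m xNMJ, chosen by their labels, 16 of the 32 libraries of the series. Both groups came from tibialis anterior (TA) muscle of wild-type male C57BL/6JRj mice aged 30 months, housed singly and fed AIN93M diet; no treatment or allele separated them. The regions were cut from sections stained with α-bungarotoxin, a toxin that binds the acetylcholine receptor (AChR), and many regions were pooled in each library. The other 16 libraries, from NMJ and xNMJ regions of mice aged 10 months, shared the fit and served for the test of the interaction with age. The sources used here do not tie a replicate number to a mouse, so p-values measure the spread between libraries.

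At the NMJ, the motor nerve terminal faces a small patch of the muscle fibre that is packed with AChR. A few myonuclei beneath this patch transcribe genes that most nuclei of the same fibre keep silent. Nerve-derived agrin acts through Lrp4 and MuSK to cluster the receptor, and neuregulin signalling and ETS transcription factors are known for their part in synaptic transcription. Terminal Schwann cells cap the nerve ending, a specialized basement membrane fills the cleft, and fibroblasts and immune cells lie nearby, so a captured NMJ region holds RNA of several cell types. In such bulk samples, more cells of a type and more RNA per cell cannot be told apart.

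Total counts ranged from 4424672 to 13182475 (median 6790011) in 30m xNMJ and from 6703228 to 16422527 (median 9825357) in 30m NMJ, and the deepest library of each group was replicate 5. The means differed by 3133338 counts (p = 0.049 by exact permutation of the libraries, two-sided, and 0.059 after adjustment over 6 library measures). Without xNMJ replicate 5 they differed by 4027687 counts (exact permutation p = 0.0028, adjusted p = 0.0034). Other library measures moved with region too. The xNMJ libraries held 9699, 10951 and 12546 genes (lowest, median and highest) at 1 or more count per 1e6 counts of the library, without TMM scaling, and the NMJ libraries 12152, 13245.5 and 13759 (exact permutation p = 0.00031, adjusted p = 0.00062). The 50 largest genes took 36.4 to 42.0% of counts in xNMJ and 28.8 to 34.8% in NMJ, without overlap (exact permutation p = 0.00016, adjusted p = 0.00047). Mean insert size, as the labels give it, was 99.5 nt in xNMJ and 109.5 nt in NMJ (exact permutation p = 0.16), and 95.1 nt in xNMJ without replicate 5 (exact permutation p = 0.016, also after adjustment). The part of these measures in the results below was not tested, apart from a fit with insert size as a covariate, which called 666 genes higher and 565 lower. Floors of 3 counts, used below, cover counting error alone, because amplified reads that carry no molecular identifier do not each stand for a molecule. Genes of fast fibres were abundant in both regions. Myh4, the myosin heavy chain of the fastest fibres, had median levels of 18200.3 CPM (counts relative to library size after TMM scaling, which sets libraries to a common level of most genes) away from the endplate and 14529 CPM at the NMJ. Chrne, which encodes the adult ε-subunit of the AChR, marked the regions as labelled, with 30m xNMJ replicate 5 standing apart.

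The 30m xNMJ replicate 5 library carried synaptic transcripts. On the first principal component of the 16 libraries (22.9% of the variance) the 8 NMJ libraries lay between 41.9 and 86.5 and the other 7 xNMJ libraries between -112 and -60.3, while xNMJ replicate 5 lay at 23.2. Over 185 genes that rose by more than 3 on the log2 scale, and whose other libraries did not overlap, its level had a median of 11.3% of the NMJ mean, against 0 to 2.73% in the other xNMJ libraries, whose low levels follow in part from that choice of genes. Its insert size of 130 nt was the highest of its group, where the others had 79 to 109 nt, and NMJ replicate 5 had 129 nt. Results are given with this library and, where its removal changed the count of a gene list or the call of a gene described here, or moved the fold of a called gene by more than 1.5 times, also without it.

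A second feature of the libraries touched the genes that were lower in NMJ. Within each of the 4 groups of libraries, 32 libraries in all, the counts of 77 genes kept a nearly fixed ratio to each other. After group means were removed, their log2(CPM + 1) correlated at r of 0.95 or more with the median profile of 36 genes whose transcripts hold a run of at least 31 A or T bases (GENCODE M21). Of the 37 tested genes with such a run, 33 were in this set. All 33 were among the 36 genes that made the profile, so their match followed in part from that choice. For the rest of the 77 no run of that length was found, as in Man2c1, with a longest run of 5 bases, and Slc39a2, with 6. The set was thus not tied to such runs by an independent test. Tbata, Syt11, Nfia, Lrp4, Spry2 and Sec61a1 were among its members. The set took 3.89 to 37.0% (median 25.1%) of the counts of 30m xNMJ libraries and 1.79 to 15.5% (median 10.9%) of those of 30m NMJ libraries, with replicate 5 lowest in both groups. Exact permutation of the libraries gave p = 0.0089 for the shares (two-sided), or 0.013 adjusted over the 6 measures. All 77 were called lower in NMJ, with log2 fold changes between -2.05 and -1.43, and their levels are reported as uncertain, since the authors' counting split reads between transcripts that share sequence. Whether these reads came from the named genes was not tested.

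**Figure D1:**
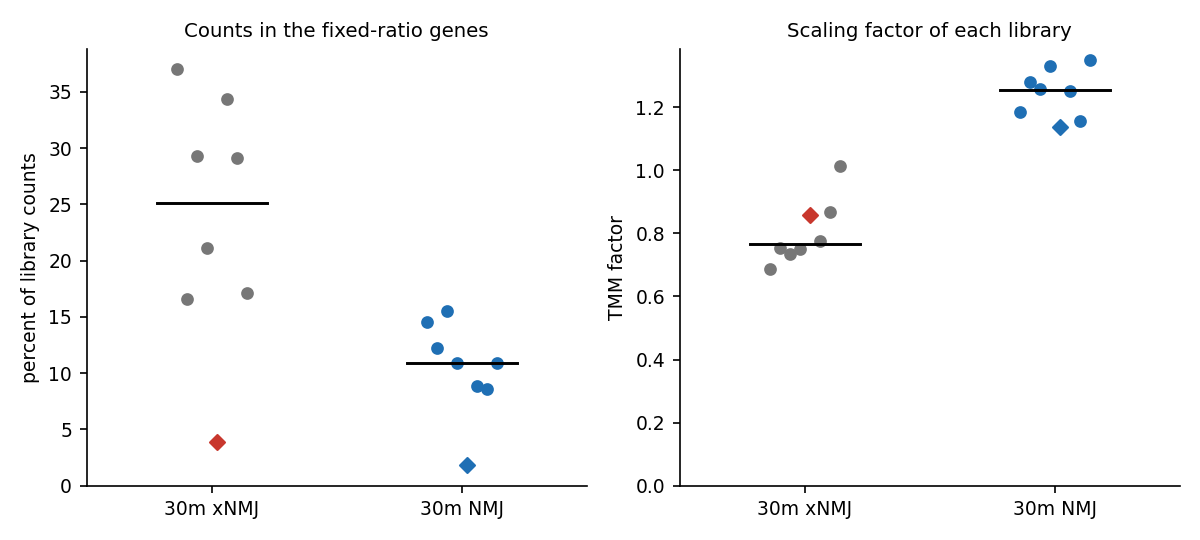
Left, percent of each library's counts that fell on the 77 genes of fixed ratio. Right, the TMM scaling factor of each library, with no unit. Points are libraries, diamonds mark replicate 5 (red in 30m xNMJ) and lines mark group medians. The share has medians of 25.1% in 30m xNMJ and 10.9% in 30m NMJ, and the scaling factors of the groups do not overlap.

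Of 13990 tested genes, 700 were higher (5%) and 595 lower (4.25%) in 30m NMJ at an adjusted p under 0.05 in edgeR's quasi-likelihood test. Differences are given as log2 fold change of NMJ over xNMJ ± standard error, with 8 libraries a group. Without xNMJ replicate 5 the counts were 835 and 640. Rises were larger than falls. The median log2 fold change was 2.69 among the genes that rose, of which 463 exceeded 2, and the median fall had a log2 fold change of 1.0 in size, with 31 genes beyond 2. The NMJ and xNMJ libraries did not overlap for 268 of the risen and 70 of the fallen genes, or for 323 and 224 without xNMJ replicate 5. Such a gap was present in 2.45% of all tested genes, and in 4.25% once xNMJ replicate 5 was left out. Both counts depended on the scaling. TMM factors were 0.686 to 1.02 in xNMJ and 1.14 to 1.35 in NMJ. When library totals were used in their place, the median log2 fold change of all genes moved from -0.01 to 0.61 and the counts became 2687 higher and 76 lower. All 700 risen genes were still called higher, and 60 of the 595 fallen genes changed sign, none of them past the threshold. With the 77 genes of fixed ratio left out of both totals and test, 684 genes were higher and 534 lower under TMM, and 1461 higher and 143 lower under library totals. Falls below are therefore relative to the bulk of genes.

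**Figure D2:**
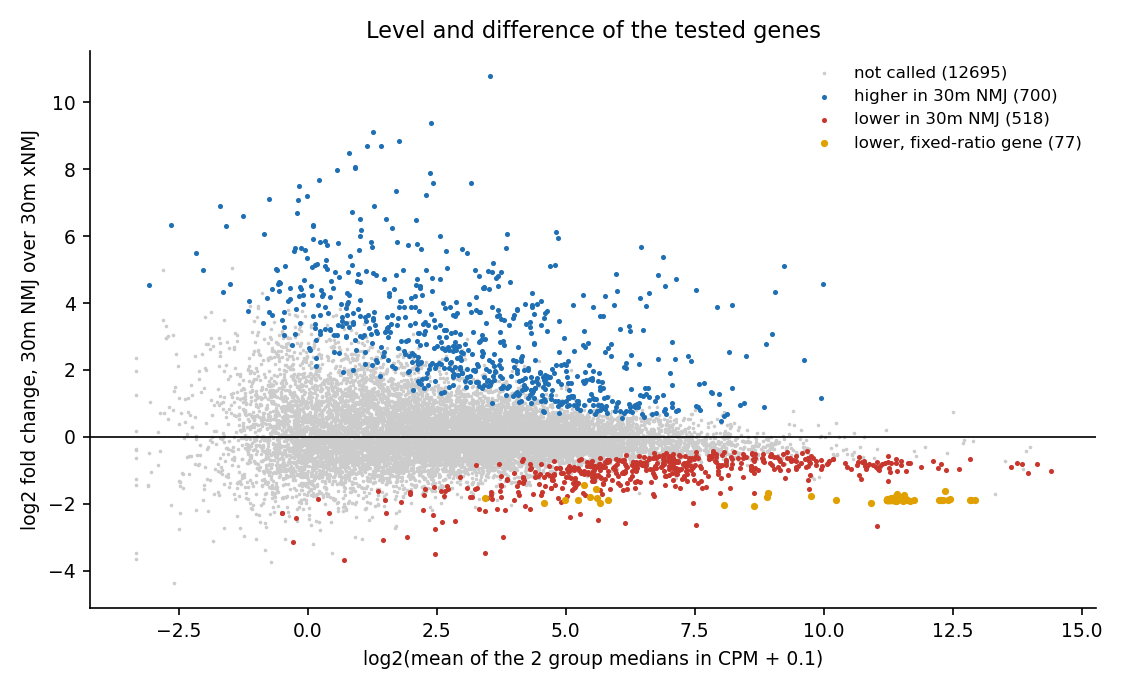
Log2 fold change of 30m NMJ over 30m xNMJ (vertical axis) against level (horizontal axis, log2 of the mean of both group medians in CPM plus 0.1), 1 point per tested gene. The 700 higher genes (blue) reach a log2 fold change of 10.8, the 518 lower genes outside the fixed-ratio set (red) lie mostly near -1, and the 77 genes of fixed ratio (yellow) form a flat band near -1.88.

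Of the 5 AChR subunit genes 4 rose at the NMJ. Chrna1 encodes the ligand-binding α-subunit (ENSMUSG00000027107, chromosome 2 from 73563215 to 73580338). Its levels were 12.5, 16.3 and 162 CPM in 30m xNMJ (lowest, median and highest library) and 401, 585 and 850.1 CPM in 30m NMJ. The groups did not overlap, and the highest xNMJ value was that of replicate 5. The log2 fold change was 3.94 ± 0.42 with an adjusted p of 7.6e-08 (edgeR), and 4.87 without replicate 5. Chrne (ENSMUSG00000014609, chromosome 11 from 70614883 to 70619216) had 0, 0 and 93.8 CPM in xNMJ and 193, 243 and 544 CPM in NMJ. Replicate 5 alone supplied the high xNMJ value, and the other 7 libraries held 1 count in all. With all libraries the log2 fold change was 4.51 ± 0.97 (adjusted p = 0.0018, edgeR). Against the 7 other libraries the ratio of levels was 9341, with a 95% counting interval from 1677 to 368948. Chrnd, the δ-subunit (ENSMUSG00000026251, chromosome 1 from 87190607 to 87200070), had 0, 0 and 7.07 CPM in xNMJ and 24.2, 55.3 and 68.6 CPM in NMJ. These values did not overlap either, and the log2 fold change was 5.15 ± 0.70 (adjusted p = 4.3e-06, edgeR), or 6.79 without replicate 5. Chrnb1, the β-subunit (chromosome 11 from 69784036 to 69795943), was also present away from the synapse, at 1.06, 19.2 and 61.7 CPM in xNMJ against 53.6, 69.1 and 110.1 CPM in NMJ. One xNMJ library lay within the NMJ range, and the log2 fold change of 1.72 ± 0.39 (adjusted p = 0.0032, edgeR) was the smallest of the 4. The fetal γ-subunit gene Chrng had medians of 0.10 and 1.84 CPM and did not pass the test (log2 fold change 2.66 ± 1.02, edgeR adjusted p = 0.10), but passed under library totals (adjusted p = 0.029, edgeR; 0.059 with the genes of fixed ratio left out as well) and without xNMJ replicate 8 (3.52, edgeR adjusted p = 0.039). Without NMJ replicate 4 it had 2.07 (adjusted p = 0.26, edgeR). Counting ignored strand, and the span of Chrne overlaps that of 4930544D05Rik in the annotation. Whether their transcripts share sequence, so that reads could not be told apart, was not tested. On the authors' TPM scale, which corrects for transcript length, Chrne was the most abundant subunit in NMJ (median 467 TPM), ahead of Chrna1 (208 TPM), Chrnb1 (53.3 TPM), Chrnd (30.0 TPM) and Chrng (1.11 TPM).

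**Figure D3:**
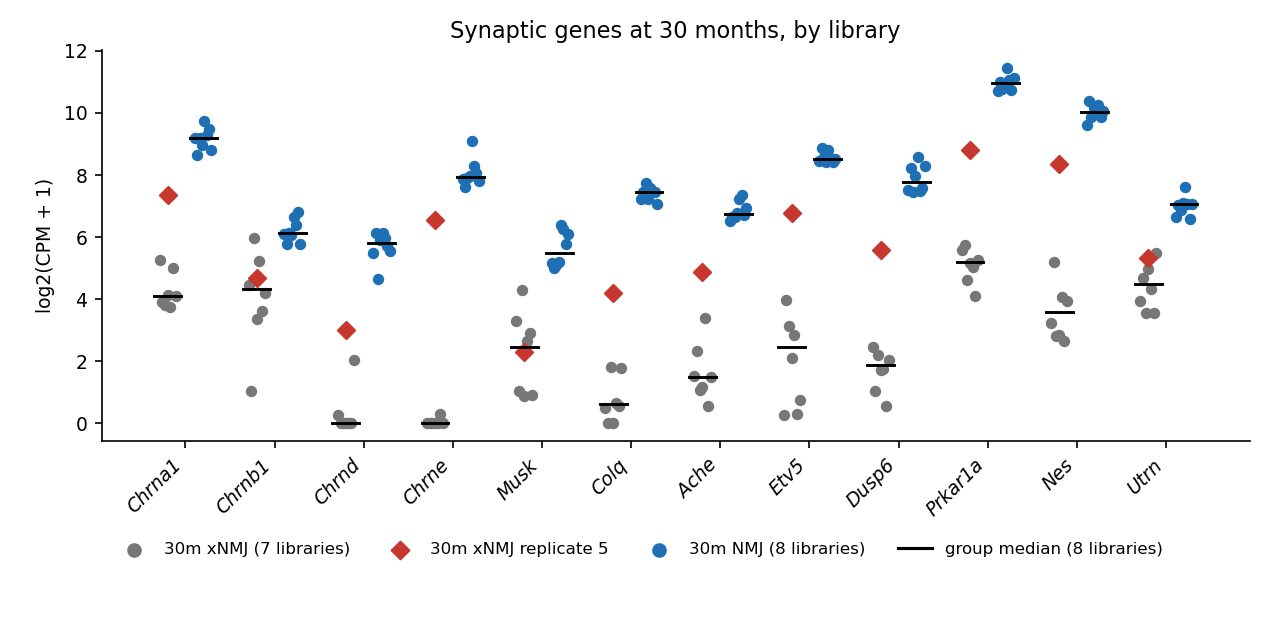
Levels of 12 synaptic genes in log2(CPM + 1) by library. Grey points are 30m xNMJ libraries, the red diamond is 30m xNMJ replicate 5, blue points are 30m NMJ libraries and bars are medians of the 8 libraries of a group. For Chrne the NMJ libraries lie between 193 and 544 CPM, replicate 5 at 93.8 CPM and the other xNMJ libraries at 0.24 CPM or below.

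The promoters of Chrne, Chrna1 and Musk, the kinase described next, are shown because they differ in the motifs known for synaptic transcription, the N-box core bound by ETS factors (searched as CCGGAA on both strands) and the E-box bound by myogenic factors (CANNTG, which reads alike on both strands). Each window runs from 250 bases before to 50 after the RefSeq gene start on GRCm38.p6, 5′ to 3′ on the strand of the gene, with both motifs in capitals.
Chrne (chr11:70619145-70619444, minus strand): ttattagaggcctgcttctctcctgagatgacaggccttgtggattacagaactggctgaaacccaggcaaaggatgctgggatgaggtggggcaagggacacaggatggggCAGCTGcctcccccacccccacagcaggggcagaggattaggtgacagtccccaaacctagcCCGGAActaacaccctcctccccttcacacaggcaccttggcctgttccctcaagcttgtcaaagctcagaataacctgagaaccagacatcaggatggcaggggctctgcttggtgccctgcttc
Chrna1 (chr2:73580289-73580588, minus strand): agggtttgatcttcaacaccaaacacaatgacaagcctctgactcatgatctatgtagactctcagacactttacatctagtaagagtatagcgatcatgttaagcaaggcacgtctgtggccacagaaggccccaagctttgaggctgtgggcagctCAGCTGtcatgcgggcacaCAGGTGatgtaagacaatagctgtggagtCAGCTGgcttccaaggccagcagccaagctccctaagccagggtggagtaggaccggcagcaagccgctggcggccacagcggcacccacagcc
Musk (chr4:58285712-58286011, plus strand): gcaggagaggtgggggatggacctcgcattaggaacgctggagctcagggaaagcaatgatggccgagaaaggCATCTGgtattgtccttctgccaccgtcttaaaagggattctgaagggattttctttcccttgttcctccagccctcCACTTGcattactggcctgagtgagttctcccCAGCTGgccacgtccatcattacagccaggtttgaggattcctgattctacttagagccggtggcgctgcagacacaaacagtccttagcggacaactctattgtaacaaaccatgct
Chrne held 1 N-box core, 76 bases before the start, and 1 E-box. Chrna1 and Musk held 3 E-boxes each and no N-box core in this window, and Chrnb1 likewise held 3 E-boxes. Dnaja3, lower in NMJ, held 1 N-box core and 1 E-box, and Hsp90b1, higher in NMJ, held 2 E-boxes and no N-box core. An N-box core was present in 15.2% of all 27025 promoters and in 15.9% of the 533 promoters found for genes higher in NMJ. Among the 442 found for genes lower in NMJ the share was 19.9%, and it was 26.3% of the 10536 found for tested genes. An E-box was present in 72.1% of all promoters, in 64.7% of those of tested genes, in 63.4% of those of the higher genes and in 67.6% of those of the lower genes. These matches describe letters in a window and not bound sites.

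Among the 12 genes of the agrin, MuSK and rapsyn pathway, 2 rose and 2 fell. Musk encodes the receptor tyrosine kinase of the endplate (ENSMUSG00000057280, chromosome 4 from 58285960 to 58374303). Its levels were 0.82, 4.56 and 18.7 CPM in xNMJ and 31.4, 44.7 and 83.1 CPM in NMJ. The groups were apart, with a log2 fold change of 3.18 ± 0.52 (adjusted p = 7.2e-05, edgeR), and xNMJ replicate 5 lay within its own group for this gene. Hsp90b1, an endoplasmic reticulum chaperone, rose by 0.80 ± 0.20 (adjusted p = 0.0059, edgeR). Dnaja3, a co-chaperone that binds MuSK, fell by 0.91 ± 0.22 on the log2 scale (adjusted p = 0.0051, edgeR), and Lrp4, the agrin receptor, belongs to the 77 genes of fixed ratio, so its call is uncertain. Rapsn, which anchors the AChR, and Dok7, which activates MuSK, had log2 fold changes of 0.07 ± 0.60 and -0.48 ± 0.55 and did not pass. Agrn, agrin itself, had medians of 1.33 and 8.91 CPM without passing (log2 fold change 1.43 ± 0.83, edgeR adjusted p = 0.35), and passed without xNMJ replicate 3 (2.81, edgeR adjusted p = 0.028).

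Of the neuregulin receptors and GABP subunits, 1 of 5 tested genes rose. This was Erbb3, a neuregulin receptor that Schwann cells express as well. It had 0, 0.23 and 3.97 CPM in xNMJ and 5.82, 13.9 and 17.3 CPM in NMJ, ranges that did not overlap, and a log2 fold change of 3.6 ± 0.76 (adjusted p = 0.0016, edgeR) or 4.6 without replicate 5. The GABP subunit genes had log2 fold changes of -0.11 ± 0.43 (Gabpa), 0.66 ± 1.04 (Gabpb1) and -0.26 ± 0.31 (Gabpb2), and none passed the test. Gabpb1 had 1.62 without xNMJ replicate 3, its highest library at 9.46 CPM (adjusted p = 0.45, edgeR).

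Genes known to be induced by ERK signalling were higher in 5 of 10 cases and lower in 2, and without xNMJ replicate 5 in 6 and 2. Etv5 (ENSMUSG00000013089, chromosome 16 from 22381309 to 22439719), an ETS transcription factor, had 0.21, 4.70 and 109 CPM in xNMJ and 341, 363 and 469 CPM in NMJ. Again replicate 5 was the highest xNMJ library, the next one holding 14.7 CPM, and the log2 fold change was 4.38 ± 0.75 (adjusted p = 1.2e-04, edgeR) or 6.31 without it. Etv4, a second ETS factor, was close to absent away from the endplate, with 0, 0 and 0.26 CPM against 7.36, 10.6 and 29.6 CPM in NMJ. The 3 counts of xNMJ all lay in replicate 5; the level in NMJ was at least 148-fold above the floor of 3 counts over the other 7 libraries. Etv1 rose by 2.26 ± 0.36. Among the feedback inhibitors, Dusp6, an ERK phosphatase, had 0.48, 2.72 and 47.3 CPM in xNMJ and 174, 219.5 and 383 CPM in NMJ, groups that did not overlap. Its log2 fold change was 4.84 ± 0.67 (adjusted p = 5.8e-06, edgeR) and 6.61 without replicate 5. Spry1 rose by 3.62 ± 0.46 on the log2 scale from a median of 6.56 to one of 94.6 CPM. Spred3 fell by 1.84 ± 0.43, with r = 0.92 to the profile of the genes of fixed ratio, and Spry2 belongs to those genes, so both falls are uncertain.

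Prkar1a, the type I regulatory subunit of protein kinase A, was among the most abundant genes that rose. It had 16.3, 35.9 and 442 CPM in xNMJ and 1667, 2005 and 2788 CPM in NMJ. The groups did not overlap, and the second highest xNMJ library had 53 CPM. The log2 fold change was 4.57 ± 0.52 (adjusted p = 2.0e-07, edgeR), or 5.88 without replicate 5. None of the other 4 subunit genes tested passed. Prkar2a, the type II subunit, had medians of 151 and 143 CPM and a log2 fold change of -0.14 ± 0.14, which became 0.49 under library totals (adjusted p = 0.017, edgeR) and 0.26 with the genes of fixed ratio left out as well (adjusted p = 0.26, edgeR).

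The enzymes that end transmission and their anchors all rose (4 of 4). Colq encodes the collagen tail that holds acetylcholinesterase in the cleft (ENSMUSG00000057606, chromosome 14 from 31523082 to 31591343). It had 0, 0.53 and 17.5 CPM in xNMJ and 133, 176 and 214 CPM in NMJ. No NMJ library came near the xNMJ range, and the log2 fold change of 5.66 ± 0.79 (adjusted p = 6.6e-06, edgeR) became 7.49 without replicate 5. Ache, acetylcholinesterase itself (ENSMUSG00000023328, chromosome 5 from 137287519 to 137294466), had 0.48, 1.81 and 28.5 CPM in xNMJ and 91.7, 106 and 162 CPM in NMJ. Here too the groups were separate, with a log2 fold change of 4.2 ± 0.58 (adjusted p = 5.8e-06, edgeR), and 5.39 without replicate 5. Bche, butyrylcholinesterase, rose by 2.06 ± 0.65 and Prima1, the membrane anchor, by 4.22 ± 1.27, reaching NMJ medians of 32.5 and 1.59 CPM. Bche did not pass without xNMJ replicate 1, 2, 3, 4 or 8 or NMJ replicate 3, 6 or 7 (adjusted p = 0.059 to 0.070, edgeR). Prima1 did not pass without xNMJ replicate 1, 2, 4 or 8 or NMJ replicate 7 (adjusted p = 0.051 to 0.13, edgeR), and its log2 fold change was 3.04 without NMJ replicate 7, its highest library at 21.5 CPM, and 5.57 without xNMJ replicate 6.

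Several basement membrane genes rose. Of 10 laminin and nidogen genes tested, 4 rose and none fell, with a median log2 fold change of 1.21 against -0.01 over all tested genes. Lamb2, the β2 chain of the synaptic cleft, went from a median of 54.8 to 212 CPM (log2 fold change 1.55 ± 0.29, edgeR adjusted p = 4.7e-04). Lama2 rose by 2.19 ± 0.43, Lamc1 by 1.24 ± 0.31 and Nid1 by 1.41 ± 0.43. Nid1 did not pass without xNMJ replicate 3 or 7 or NMJ replicate 1 or 2 (adjusted p = 0.051 to 0.063, edgeR). Of 32 collagen genes, 11 rose and none fell (median 1.82), and without replicate 5 the count was 12. Col20a1 had 0, 0.29 and 5.48 CPM in xNMJ and 43.6, 51.7 and 82.4 CPM in NMJ, without overlap, and a log2 fold change of 5.11 ± 0.60 (adjusted p = 3.2e-07, edgeR), or 5.91 without replicate 5. Col19a1 rose by 4.19 ± 0.62, Col18a1, the source of endostatin, by 3.13 ± 0.47 and Col13a1, a transmembrane collagen of the endplate, by 4.14 ± 0.87, or 4.88 without xNMJ replicate 4. The fibrillar chain Col1a2 rose by 1.83 ± 0.26, whereas Col1a1 had medians of 14.5 and 21.6 CPM and did not pass (log2 fold change 0.16 ± 0.34). Among 21 integrin subunit genes 3 rose, or 4 without replicate 5, with Itgb5 from 49.0 to 229 CPM (log2 fold change 2.34 ± 0.27, edgeR adjusted p = 2.9e-07), Itgb1 by 0.77 ± 0.23 and Itgb8, a sparse transcript, from 0.088 to 6.37 CPM. Itgb1 did not pass without xNMJ replicate 1, 2, 6, 7 or 8 or NMJ replicate 2, 5 or 6 (adjusted p = 0.051 to 0.073, edgeR).

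The genes of utrophin, the synaptic homologue, and of dystrophin moved in opposite directions with TMM factors, while under library totals Dmd had a log2 fold change of -0.01. Utrn had 10.7, 21.8 and 43.6 CPM in xNMJ and 94.8, 132 and 195 CPM in NMJ. The groups did not overlap and the log2 fold change was 2.44 ± 0.32 (adjusted p = 2.8e-06, edgeR). Dmd, dystrophin, went from 167 to 102 CPM (log2 fold change -0.63 ± 0.17, edgeR adjusted p = 0.011). Sntb2, a syntrophin, an adaptor of the complex, rose by 2.29 ± 0.35. Dtna, α-dystrobrevin, rose by 0.93 ± 0.24, Dag1, dystroglycan, by 0.72 ± 0.15 and Sgce, ε-sarcoglycan, by 3.36 ± 0.97, so that 5 of the 14 genes rose and 2 fell. Neither fall passed under library totals, and the adjusted p of Dmd was then 0.96 (edgeR), or 0.31 with the genes of fixed ratio left out as well. Nestin, an intermediate filament protein of the endplate, was among the clearest markers, with 5.28, 11.3 and 324 CPM in xNMJ and 780.4, 1051 and 1324 CPM in NMJ. Its log2 fold change was 4.32 ± 0.68 (adjusted p = 3.8e-05, edgeR), and 6.32 without replicate 5, which held the highest xNMJ value. Syne1, which links myonuclei to the cytoskeleton, rose by 1.66 ± 0.37, Macf1, a linker of actin and microtubules, by 1.41 ± 0.35 and Vim by 1.26 ± 0.30, while Des, the desmin of the whole fibre, had medians of 984 and 997 CPM and did not pass. These 4 rises were among 12 tested genes, with no fall.

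Ion channel genes went both ways, with 4 of 15 higher and 3 lower, or 4 and 4 without replicate 5. Kcnj12, an inward rectifier potassium channel, had 2.62, 8.49 and 23.6 CPM in xNMJ and 111, 179 and 216 CPM in NMJ. The ranges lay far apart, with a log2 fold change of 3.92 ± 0.37 (adjusted p = 7.0e-09, edgeR), and xNMJ replicate 5 was not its highest library. Scn4a, the sodium channel of the fibre, which is concentrated at the endplate, rose by 0.97 ± 0.23 from 33.2 to 69.2 CPM and the chloride channel Clcn1 by 1.18 ± 0.25. The voltage-gated potassium channels Kcnc4 and Kcnc1 and the calcium channel Cacna1s of the transverse tubules fell. Kcnc4 had 20.9, 54.3 and 141 CPM in xNMJ and 5.68, 13.2 and 17.5 CPM in NMJ, without overlap, and fell by 2.40 ± 0.34 on the log2 scale (adjusted p = 8.3e-06, edgeR), also under library totals (-1.79, edgeR adjusted p = 3.6e-04).

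Of 18 genes that respond to denervation 4 rose (median log2 fold change -0.20), namely Chrna1, Musk, Ncam1 and Myog, and none fell. Ncam1, a cell adhesion molecule, went from a median of 5.83 to 99.0 CPM (log2 fold change 3.61 ± 0.41, edgeR adjusted p = 2.0e-07) and Myog, a myogenic transcription factor, from 0.19 to 2.62 CPM (3.33 ± 0.97, edgeR adjusted p = 0.023). Myog did not pass without NMJ replicate 6 (adjusted p = 0.071, edgeR), and its log2 fold change was 3.95 without xNMJ replicate 7. Runx1, Gadd45a, Myod1 and Hdac4 did not pass, with log2 fold changes of 0.25 ± 0.64, -0.73 ± 0.36, -0.66 ± 0.53 and -0.15 ± 0.30. Of 22 genes for folding and glycosylation in the endoplasmic reticulum, 8 rose and 1 fell, or 7 and 1 without replicate 5. Hspa5 (BiP), the main chaperone, went from 147 to 352 CPM (log2 fold change 1.29 ± 0.17, edgeR adjusted p = 3.0e-06), P4hb, a disulfide isomerase, rose by 1.24 ± 0.25, Calr by 0.82 ± 0.17, and Gfpt1, the first enzyme of the hexosamine pathway, by 1.27 ± 0.31. The 1 that fell, Sec61a1, belongs to the genes of fixed ratio.

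Markers of several cell types other than muscle fibres were higher in NMJ. Of 13 Schwann cell markers 11 rose and none fell, with a median log2 fold change of 3.68. Their summed level ran from 4.91 to 29.4 TPM in xNMJ and from 152 to 315 TPM in NMJ, with Pmp22 the most abundant, and the groups did not overlap. Sox10, the lineage factor, had 0, 0.044 and 0.82 CPM in xNMJ and 8.69, 11.6 and 15.1 CPM in NMJ. Its groups did not overlap, and it rose by 6.00 ± 0.83 on the log2 scale (adjusted p = 5.8e-06, edgeR), or 7.0 without xNMJ replicate 4. S100b, a calcium-binding protein of glia, rose by 4.94 ± 0.73, or 6.59 without replicate 5. Transcripts of motor axons were near the floor: of 11 genes 4 were tested and none passed, at summed levels of 0.78 to 11.7 TPM in xNMJ and 2.02 to 13.6 TPM in NMJ.

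Fibroblast markers rose in 7 of 12 cases (median log2 fold change 1.78). The count was also 7 without replicate 5, with Fbn1 lost and Mfap5 gained. Dcn, decorin, the most abundant of them, had 48.8, 124 and 233 CPM in xNMJ and 672, 816 and 1328 CPM in NMJ. The groups were apart with a log2 fold change of 2.78 ± 0.28 (adjusted p = 2.0e-08, edgeR), and replicate 5 was the highest xNMJ library. Smoc2 rose by 3.18 ± 0.37, Lum, lumican, by 3.89 ± 0.50 and Pdgfra, the receptor that marks fibro-adipogenic progenitors, by 2.68 ± 0.56. Of 12 macrophage markers, counting 2 identifiers of Itgam, 6 rose and none fell. Without replicate 5 there were 5, since Cd14, a receptor for bacterial lipopolysaccharide, then missed the threshold (3.86, edgeR adjusted p = 0.0505). Lyz2, the most abundant, went from 7.06 to 144 CPM (log2 fold change 3.17 ± 0.60, edgeR adjusted p = 5.2e-04), with replicate 5 the highest xNMJ library at 103 CPM and a log2 fold change of 4.39 without it, and Mrc1, a scavenger receptor, from 1.42 to 30.3 CPM. Adgre1 (F4/80) had no count in any xNMJ library and was at least 112-fold above the floor of 3 counts over the group. The other defining markers Csf1r and Cd68 did not pass, with log2 fold changes of 0.56 ± 0.65 and 1.4 ± 1.08. Single xNMJ libraries weighed on both: without replicate 2 Csf1r had 1.81 (adjusted p = 0.055, edgeR), and without replicate 5 Cd68 had 2.99 (adjusted p = 0.12, edgeR).

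Mast cell genes showed the widest gap of the marker lists, with 5 of 7 higher and a median log2 fold change of 6.49 (4 of 7 without replicate 5). Their summed level was 0.04 to 1.21 TPM in xNMJ and 7.37 to 153 TPM in NMJ. Cma1, mast cell chymase and the gene of the largest fitted rise by the rule for named genes, was listed at 0 in all 8 xNMJ libraries and at 1.55, 23.1 and 71.1 CPM in NMJ, at least 355-fold above the floor over the group. Tpsb2, a tryptase, and Cpa3, a carboxypeptidase, were likewise at 0 in xNMJ and at least 134-fold and 52.6-fold above that floor. Kit, the receptor of mast cell growth factor, had medians of 0.68 and 0.57 CPM and did not pass. NMJ libraries differed widely from each other in these genes: Cma1 ranged from 1.55 to 71.1 CPM.

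Vessel markers did not rise as a group. Of 9 endothelial markers none rose and 2 fell, Flt1 by 1.04 ± 0.25 and Cdh5 by 1.29 ± 0.34 on the log2 scale, and of 8 markers of pericytes and smooth muscle Cspg4 rose (1.79 ± 0.56) while Rgs5 and Abcc9 fell. Under library totals none of these 4 falls passed, and the rise of Cspg4 and the falls of Rgs5 and Abcc9 lay near the threshold. Cspg4 did not pass without xNMJ replicate 1, 3, 4, 5, 7 or 8 or NMJ replicate 2, 3 or 6 (adjusted p = 0.052 to 0.079, edgeR). Rgs5 did not pass without xNMJ replicate 2, 6 or 8 or NMJ replicate 1, 3, 6, 7 or 8 (adjusted p = 0.051 to 0.099, edgeR). Abcc9 did not pass without xNMJ replicate 8 or NMJ replicate 3 or 4 (adjusted p = 0.056 to 0.078, edgeR). Of the adipocyte markers 2 of 4 fell, Fabp4 (adjusted p = 0.016, edgeR) and Plin1, the latter with r = 0.93 to the profile of the genes of fixed ratio. Fabp4 did not pass without xNMJ replicate 2 or 5 (adjusted p = 0.057 to 0.068, edgeR). None of 5 red blood cell genes passed, with log2 fold changes between -1.83 and -1.20, and their summed level spread from 1290.2 to 29584 TPM over the xNMJ libraries. Among 6 tested markers of muscle stem cells 1 rose, Sdc4 (1.79 ± 0.33), which fibres and other cells also express, and Pax7 had medians of 0.54 and 0.68 CPM. Of 12 genes of antigen presentation H2-Aa rose (1.80 ± 0.59, edgeR adjusted p = 0.049) and none fell. Under library totals 7 of the 12 were higher, or 4 with the genes of fixed ratio left out as well. Over all tested genes these settings called 2687 of 13990 and 1461 of 13913 higher. H2-Aa did not pass without xNMJ replicate 2, 3, 4, 6 or 7 or NMJ replicate 1, 2, 3, 4, 6 or 7 (adjusted p = 0.053 to 0.091, edgeR), nor did it with the genes of fixed ratio left out (adjusted p = 0.050, edgeR). Without xNMJ replicate 5, 3 of the 12 were higher, namely H2-Aa (2.16), H2-Ab1 (2.38) and Cd74 (3.83), the last 2 named after their values were seen. Neither of 2 tested lymphocyte markers passed. What part these cell types had in the rises of genes that fibres share with them was not tested.

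The 12 largest rises by the rule for named genes came from 245 genes that met its conditions. Beside Cma1, Etv4, Sox10 and Colq they included Arc, Sfrp1, Nkd2, Slc45a3, Postn, Klk8 and Il33. Arc, an immediate early gene, had 2 counts over all xNMJ libraries, both in replicate 8, and 2.31, 10.2 and 39.3 CPM in NMJ. Sfrp1 and Nkd2, both inhibitors of Wnt signalling, had 10.5, 17.7 and 27.2 CPM and 39.0, 55.6 and 82.4 CPM in NMJ against highest xNMJ values of 0.26 CPM and 3.44 CPM. Without replicate 5 there was 1 count of Sfrp1 in xNMJ, and the ratio of levels was 596 (95% counting interval 107 to 23533). Neither overlapped, and the log2 fold change of Nkd2 was 6.11 ± 0.67 (adjusted p = 1.3e-07, edgeR), or 7.62 without replicate 5. Slc45a3, a sugar transporter, had 0, 0 and 2.03 CPM in xNMJ and 24.0, 29.0 and 38.6 CPM in NMJ. Without replicate 5 there were 3 counts of it in xNMJ, a ratio of levels of 332 (95% counting interval 114 to 1609.5). Postn, periostin, a matrix protein of fibroblasts, had 0, 0 and 2.46 CPM and 13.1, 28.6 and 65.0 CPM (log2 fold change 5.66 ± 0.82, edgeR adjusted p = 1.1e-05), and the log2 fold change was 6.41 without replicate 5 and 6.30 without xNMJ replicate 1. Klk8, a secreted protease, and Il33, a cytokine of stromal cells, reached NMJ medians of 8.97 and 15.5 CPM from medians of 0 and 0.22 CPM. Klk8 had a log2 fold change of 5.62 ± 1.01, and against the xNMJ libraries other than replicate 5, which held 2 counts of it, its ratio of levels was 199 (95% counting interval 55.2 to 1645). For Il33 and Klk8 the lowest NMJ library, at 0.80 and 1.55 CPM, lay just above the highest xNMJ library.

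Of the 41 gene lists, those of oxidative phosphorylation and fatty acid use held the most falls. Of 20 genes of fatty acid uptake and oxidation 16 fell and none rose (median log2 fold change -1.04), and without replicate 5 the count was 17. Lpl, lipoprotein lipase, which releases fatty acids from lipoproteins, had 386, 766 and 1129 CPM in xNMJ and 125, 213 and 428 CPM in NMJ. One NMJ library lay within the xNMJ range, and the log2 fold change was -1.69 ± 0.23 (adjusted p = 4.4e-06, edgeR). Cd36, the fatty acid transporter, fell by 1.48 ± 0.24 on the log2 scale (medians 301 and 121 CPM), Fabp3, the fatty acid-binding protein of muscle, by 1.55 ± 0.32 and Acsl1, which activates fatty acids, by 1.30 ± 0.24. Cpt1b, the gate of mitochondrial uptake, fell by 1.19 ± 0.26. Under library totals 4 of the 20 were still lower, and 7 of 20 when the genes of fixed ratio were left out as well.

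Of 80 nuclear-encoded genes of oxidative phosphorylation 48 fell and none rose, with a median of -0.71 and a range from -1.03 to 0.04, and without xNMJ replicate 5 the count was 39 and the median -0.61. The falls were small. Atp5e, a subunit of ATP synthase, had 3497, 3956 and 6804 CPM in xNMJ and 1706, 2213 and 2557 CPM in NMJ, groups that did not overlap, and a log2 fold change of -1.03 ± 0.16 (adjusted p = 3.8e-05, edgeR). Cox8b, the most abundant member, fell by 0.99 ± 0.16, Atp5l by 0.97 ± 0.14 and Ndufc1, a subunit of complex I, by 0.90 ± 0.16 on the log2 scale. The citric acid cycle followed with 10 of 16 lower (median -0.71), or 8 without replicate 5, among them Idh3a (-1.0 ± 0.18) and Mdh2 (-0.96 ± 0.17). Glycolysis and glycogen genes fell in 11 of 25 cases (median -0.67), or 10 without replicate 5, with Tpi1 at -1.01 ± 0.18, Pgm2 at -1.09 ± 0.17 and Pfkm at -0.63 ± 0.12, whereas Pygm, glycogen phosphorylase, had medians of 1471 and 1603 CPM. Phkg1 was among the 11 and belongs to the genes of fixed ratio. Of these falls of oxidative phosphorylation and the citric acid cycle none passed under library totals, where the medians were -0.09 and -0.08, and 1 of the glycolytic genes did. Library totals called 3 of the 25 glycolytic genes higher, or 1 of 24 without the genes of fixed ratio. Over all tested genes the same settings called 2687 of 13990 and 1461 of 13913 higher. With the genes of fixed ratio left out, library totals gave 19 of 80, 4 of 16 and 3 of 24 lower, with medians of -0.31, -0.30 and -0.24. These groups were thus lower in NMJ relative to the bulk of genes, and the size of their fall as a share of counts depended on whether the reads of fixed ratio were counted.

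**Figure D4:**
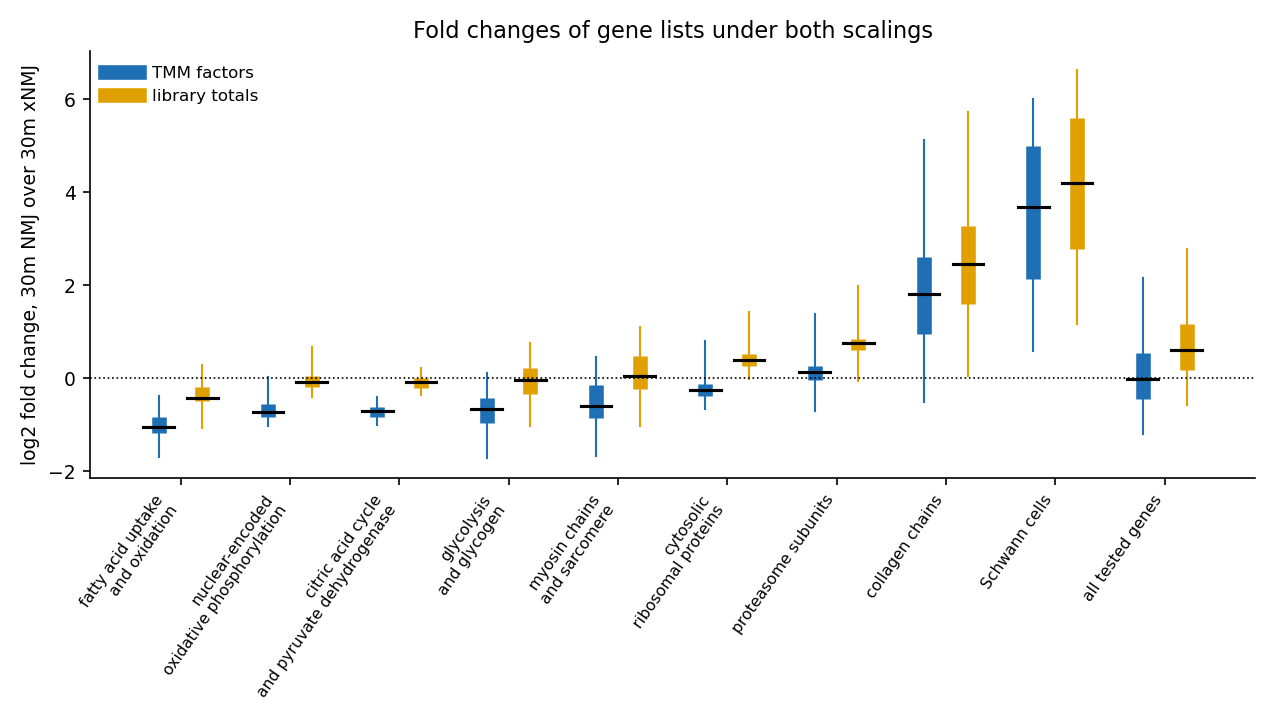
Log2 fold change of 30m NMJ over 30m xNMJ for 9 gene lists and all tested genes, with TMM factors (blue) and with library totals (yellow). Thick bars span the interquartile range, thin lines run from the lowest to the highest member (from the 5th to the 95th percentile for all genes) and black marks are medians. The medians of fatty acid genes are -1.04 and -0.42 and those of oxidative phosphorylation -0.71 and -0.09, while those of collagens are 1.82 and 2.46.

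Contractile genes fell in part, with 9 of 27 lower and none higher (median -0.59). Tnnt3, fast troponin T and the most abundant by counts, had 20118, 29683 and 36517 CPM in xNMJ and 11373, 13496 and 17096 CPM in NMJ. The groups did not overlap, and the log2 fold change was -1.01 ± 0.17 (adjusted p = 9.0e-05, edgeR). Mybpc1, slow myosin-binding protein C, fell by 1.13 ± 0.20, Tnni2 by 0.91 ± 0.18, Myh1, the myosin of intermediate fast fibres, by 0.96 ± 0.27 and Acta1, skeletal actin, by 0.81 ± 0.18 on the log2 scale. Myh1 did not pass without xNMJ replicate 2 (adjusted p = 0.057, edgeR). Myh4, Ttn and Neb did not pass, with log2 fold changes of -0.31 ± 0.21, 0.19 ± 0.18 and 0.36 ± 0.37. The sign for Neb rested on NMJ replicate 5, its highest library at 4953 CPM, and the log2 fold change was -0.28 without it. Of 16 calcium handling genes 3 fell, or 4 without replicate 5: Atp2a1, the fast calcium pump (-0.86 ± 0.19), Hrc (-0.73 ± 0.16) and Jph1 (-0.84 ± 0.21, with r = 0.53 to the profile of the genes of fixed ratio). Atp2a2, the pump of slow fibres and non-muscle cells, rose by 1.57 ± 0.46 from a median of 10.6 to 40.0 CPM. Under library totals no sarcomere or calcium handling gene passed as lower, and with the genes of fixed ratio left out as well 5 of 27 and 1 of 16 did. As higher, 3 of 27 and 3 of 16 passed under library totals, and 1 of 27 and 2 of 16 with those genes left out as well. All tested genes gave 2687 of 13990 and 1461 of 13913 higher in these settings.

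**Figure D5:**
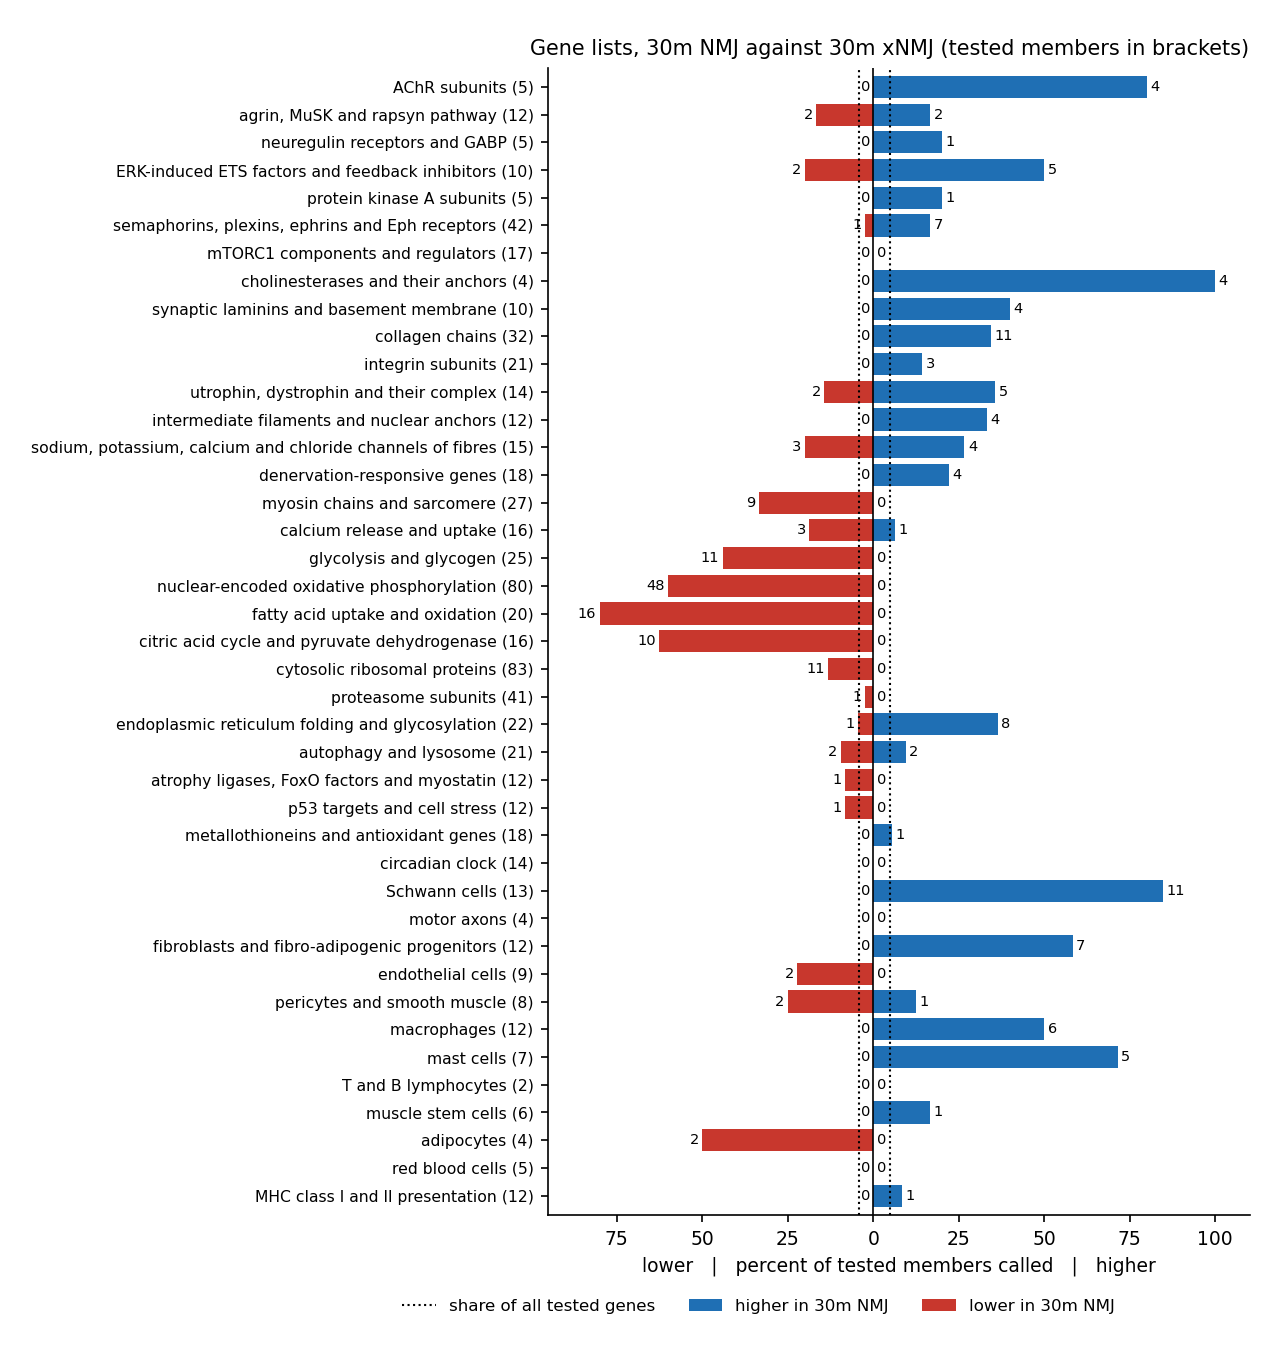
Percent of tested members called higher (blue, right) or lower (red, left) in 30m NMJ for 41 gene lists, with the number called beside each bar and the number tested in brackets. Dotted lines mark the share among all tested genes, 5% higher and 4.25% lower. All 4 cholinesterase genes and 11 of 13 Schwann cell markers are higher, and 16 of 20 fatty acid genes are lower.

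Of the 222 genes that met the conditions for falls, the rule took the 12 largest, and 9 of these had r of at least 0.5 with the profile of fixed ratio, 5 of them as members of the set (Gm11131, Tnfrsf14, Dusp23, Pax8 and Hoxb1). Ccdc36 (r = 0.67), Gata3 (0.89) and Gm4285 (0.94) lay between, as did Car3 (0.63), and the levels of these genes are reported with that caution. Without xNMJ replicate 1 the log2 fold change of Ccdc36 went from -2.62 ± 0.64 to -1.89. Car3, carbonic anhydrase 3, a cytosolic enzyme of muscle, had 2567, 3629.8 and 6059.8 CPM in xNMJ and 329, 557 and 862 CPM in NMJ. No library overlapped, the log2 fold change was -2.68 ± 0.24 (adjusted p = 2.0e-09, edgeR), and it was -2.05 under library totals (adjusted p = 5.7e-08, edgeR). Aqp4, the water channel of fast fibres, had 7.10, 24.9 and 46.3 CPM in xNMJ and 0.42, 2.58 and 6.96 CPM in NMJ. It fell by 2.98 ± 0.61 on the log2 scale (adjusted p = 0.0012, edgeR) without overlap, and its r with the profile was 0.03. Padi2, a protein arginine deiminase, had 34.2, 84.1 and 180.0 CPM and 6.86, 14.5 and 26.6 CPM, likewise apart, with a log2 fold change of -2.49 ± 0.33 (adjusted p = 3.0e-06, edgeR).

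The next falls with r under 0.5, chosen after their values were seen, included Sgk1, a kinase of ion transport, at -1.70 ± 0.24, Oxct1, the enzyme of ketone body use, at -1.53 ± 0.16 and Abra, an actin-binding protein of striated muscle, at -1.52 ± 0.29. Oxct1 had 305, 419.7 and 589 CPM in xNMJ and 98.1, 165 and 175 CPM in NMJ, without overlap (adjusted p = 7.6e-08, edgeR). Fitm2, which acts in lipid droplet formation, fell by 1.32 ± 0.22 and Tspan8, a tetraspanin, by 1.37 ± 0.30. Each of these 5 genes kept its direction under library totals, and Tspan8 did not pass there (adjusted p = 0.080, edgeR) but did with the genes of fixed ratio left out as well (adjusted p = 0.022, edgeR).

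Further pathways ranged from lists with no called gene to lists with calls in both directions. Over all tested genes 5% were called higher and 4.25% lower, so a single call in a list says little about that list. Of 17 mTORC1 components and regulators none was called in either direction, and the median log2 fold change was 0.22. Tsc1, an inhibitor of mTORC1, had medians of 12.2 and 19.4 CPM (log2 fold change 0.35 ± 0.34), Mtor 3.32 and 10.6 CPM (0.76 ± 0.62) and Deptor, an inhibitory subunit, 101 and 94.5 CPM (0.08 ± 0.20). Under library totals 4 of the 17 were higher, and 0 with the genes of fixed ratio left out as well. Over all tested genes library totals called 2687 of 13990 higher and 76 lower. With the genes of fixed ratio left out as well, 1461 of 13913 were higher and 143 lower. Counts of lists under library totals, here and below, are to be read beside these. Without xNMJ replicate 5, which held 35.2 CPM of Mtor, the highest of its group, Mtor was the 1 of the 17 called, as higher (1.84, edgeR adjusted p = 0.036). In counts simulated for this comparison, changes were planted among 13990 genes, only in genes averaging over 5 CPM. Of these, 25 of 100 changed 2-fold and 72 of 100 changed 4-fold were recovered, so smaller differences could be missed. Recovery of sparser genes was not simulated. No circadian clock gene passed (0 of 14), and 4 were higher under library totals, or 0 with the genes of fixed ratio left out as well. Of 12 genes of atrophy ligases, FoxO factors and myostatin 1 fell, Mstn, the inhibitor of muscle growth, from 21.4 to 5.36 CPM (log2 fold change -1.79 ± 0.55, edgeR adjusted p = 0.033), while Fbxo32 and Trim63 did not pass. Mstn did not pass without xNMJ replicate 1, 2, 3 or 4 or NMJ replicate 1, 3, 4, 6, 7 or 8 (adjusted p = 0.051 to 0.075, edgeR), and Fbxo32 was called lower without NMJ replicate 7 (-0.85, edgeR adjusted p = 0.042). Of 41 proteasome genes 1 fell (Psmd8, -0.71 ± 0.20), and of 83 ribosomal protein genes 11 fell with a median log2 fold change of -0.24, or 9 without replicate 5. Under library totals 20 ribosomal and 20 proteasome genes were higher and none lower. The median of the ribosomal list moved from -0.24 to 0.40 and that of the proteasome list from 0.14 to 0.77. With the genes of fixed ratio left out as well, 3 ribosomal and 9 proteasome genes were higher and the medians were 0.18 and 0.55. With TMM factors autophagy and lysosome genes were split, with Ctsk (4.05 ± 1.02) and Hexa (1.23 ± 0.34) higher and Bnip3 (-0.80 ± 0.19) and Ctsl (-0.75 ± 0.24) lower among 21. Without replicate 5, 3 were higher and 3 lower. Under library totals 9 of the 21 were higher and none lower, or 7 and none with the genes of fixed ratio left out as well. Ctsk had 2.93 without NMJ replicate 7, its highest library at 24.3 CPM (adjusted p = 0.048, edgeR), and 5.45 without xNMJ replicate 1. Ctsl did not pass without xNMJ replicate 1, 2, 3, 5 or 7 or NMJ replicate 1, 2, 3, 4 or 8 (adjusted p = 0.055 to 0.095, edgeR). Of 18 antioxidant genes 1 rose, Sod3, the extracellular superoxide dismutase (2.76 ± 0.55), beside 5% of all tested genes. Of 12 p53 targets 1 fell, Ccng1 (-0.94 ± 0.15), beside 4.25% of all tested genes. Under library totals 7 of the 18 and 3 of the 12 were higher and none lower. With the genes of fixed ratio left out as well, 7 of the 18 were higher, and of the 12 p53 targets 1 was higher and 1 lower.

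Guidance molecules showed a mixed picture, with 7 of 42 semaphorin, plexin, ephrin and Eph receptor genes higher and 1 lower. Without replicate 5 there were 6 higher, since Sema4f then missed the threshold (3.62, edgeR adjusted p = 0.061). Plxnd1 went from a median of 4.28 to 31.1 CPM (log2 fold change 2.42 ± 0.40, edgeR adjusted p = 6.9e-05) and Plxnb2 from 3.08 to 18.8 CPM (2.04 ± 0.61). Sema3d, a secreted semaphorin, had 1 count over the 8 xNMJ libraries and a median of 3.86 CPM in NMJ. The receptor Plxna4 fell by 2.51 ± 0.75 on the log2 scale, from 12.2 to 2.08 CPM. This fall did not pass under library totals (adjusted p = 0.067, edgeR). Plxna4 did not pass without xNMJ replicate 2 or 6 or NMJ replicate 1, 3 or 4 (adjusted p = 0.054 to 0.071, edgeR). Plxnb2 did not pass without xNMJ replicate 3 or 8 (adjusted p = 0.050 to 0.051, edgeR), and its log2 fold change was 2.64 without xNMJ replicate 4. None of the 9 Eph receptor genes or 4 ephrin genes tested passed.

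The region difference at 30 months was set against that at 10 months by an interaction term in the same fit. Mice of 30 months had also received the AIN93M diet for longer, and age and time on diet cannot be told apart. No gene passed (0 of 13990, or 0% called), with 709 genes at an unadjusted p under 0.05. Without xNMJ replicate 7 edgeR called 1 gene with a smaller difference at 30 months. DESeq2 called 2 genes with a larger and 6 with a smaller difference at 30 months. The smallest p-values for a larger difference belonged to Gm31659, Rtel1 and Fhit, and those for a smaller one to Fkbp10, Col20a1 and Etv5. Fkbp10, a collagen chaperone, had an interaction of -8.61 ± 1.60 on the log2 scale (adjusted p = 0.16, edgeR), Col20a1 one of -5.0 ± 1.09 (adjusted p = 0.40, edgeR) and Etv5 one of -4.57 ± 1.08 (adjusted p = 0.45, edgeR). Without xNMJ replicate 5 the interaction of Etv5 was -2.63 and that of Col20a1 -4.2. Fkbp10 at 30 months had a region difference of -0.26 ± 0.81 on the log2 scale, which turned to 0.85 without xNMJ replicate 2, its highest library at 16.1 CPM, and neither passed the test. Rtel1, a helicase of telomeres, rose at 30 months from a median of 0.47 to 9.41 CPM (log2 fold change 3.36 ± 0.73, or 3.98 without replicate 5) and had an interaction of 4.2 ± 0.97 (adjusted p = 0.45, edgeR).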

How the data were processed

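RNA of laser-captured regions was amplified with a SMART-Seq v4 kit and sequenced in single-end reads. The authors trimmed reads with cutadapt 1.9.1 and assigned them with kallisto 0.43.1 to protein-coding Ensembl transcripts (GRCm38). A read on several transcripts was split between them without regard to strand, so reads from sequence that 2 genes share cannot be told apart. By whole gene span, introns included, 57 of the 186 genes examined by name overlap another gene. Among them are Ache, Dnaja3, Col18a1, Atp2a1, Dmd, Tnnt3 and Oxct1. Whether the transcripts of these genes share sequence was not tested. The deposited tables hold counts and, in a second file by the authors, TPM per gene and library, for 24952 genes. Counts were fitted here over all 32 libraries (4 groups) with edgeR 4.0.16 (TMM factors, quasi-likelihood F-test, Benjamini-Hochberg adjustment over all tested genes), keeping the 13990 genes with at least 1 CPM in at least 8 libraries. Library measures were compared by two-sided exact permutation tests. TPM served to compare genes of different length. The fit was tested on simulated counts with 200 changed genes averaging over 5 CPM, where 5 unchanged genes were called. Apart from the planted changes, all libraries were drawn from the same gene means, with no outlying library.

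Named genes were the 12 largest rises and 12 largest falls among genes called with and without 30m xNMJ replicate 5, averaging 5 CPM or more, whose groups did not overlap once that library was left out. Of each gene list, members by smallest p and those its count turned on were named, as were the 3 smallest interaction p-values in each direction; other members were named to complete a list. The libraries, the gene lists and the tests were chosen with earlier results of these data known. Alternatives were a replicate block, DESeq2 1.42.0, DESeq2 size factors, no filter, insert size as a covariate, the 30-month groups alone and leaving out each library. Library totals without TMM factors, a fit without the genes of fixed ratio, both together, and a replicate block without replicate 5 were added after seeing the data. Gene positions came from GENCODE M21 (GRCm38), and promoter sequences from RefSeq (GRCm38.p6), which matched 533 of the 700 higher genes. Some genes of these lists are not reported here.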

Additional observations from a re-analysis of the deposited data

Results flagged for a closer look

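Values that stood far from the other 7 of their group by Dixon's test are given here; chance alone marks about 1 in 20 groups. Most belonged to the replicate 5 libraries. In 30m xNMJ replicate 5 the total of 13182475 counts and the first principal component (23.2) stood apart. So did the levels of synaptic genes in that library, which were 162 CPM for Chrna1, 93.8 CPM for Chrne, 17.5 CPM for Colq, 47.3 CPM for Dusp6, 0.26 CPM for Etv4, 324 CPM for Nes, 3.44 CPM for Nkd2, 442 CPM for Prkar1a and 2.03 CPM for Slc45a3, each the highest of its group. The genes of fixed ratio and those near them were lowest there, at 8.74 CPM for Ccdc36, 413 CPM for Dusp23, 77.7 CPM for Gm11131, 6.27 CPM for Hoxb1, 11.7 CPM for Pax8 and 54.6 CPM for Tnfrsf14.

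In 30m NMJ replicate 5 the total was 16422527 counts, and Chrne was highest at 544 CPM. The same genes were lowest there, at 4.02 CPM for Ccdc36, 188 CPM for Dusp23, 27.4 CPM for Gm11131, 2.14 CPM for Hoxb1, 4.66 CPM for Pax8 and 18.0 CPM for Tnfrsf14. Other libraries stood apart for single genes. Arc had 0.45 CPM in 30m xNMJ replicate 8, Sox10 0.82 CPM in 30m xNMJ replicate 4, Chrnd 24.2 CPM in 30m NMJ replicate 3 and Dcn 1328 CPM in 30m NMJ replicate 7.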

How the results depend on the processing

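The 700 higher and 595 lower genes moved by less than 1.5 times under the other tools, filters and sample choices. Leaving out each library in turn gave 606 to 835 higher and 493 to 640 lower genes. Library totals without TMM factors gave 2687 higher and 76 lower genes, and 1461 and 143 with the genes of fixed ratio left out as well. Under library totals Prkar2a (0.49), Rpl3l (0.033) and Rps29 (0.073) changed sign on the log2 scale. The interaction called 0 larger and 0 smaller differences, 2 and 6 with DESeq2, and between 0 and 1 smaller when single libraries were left out, the 1 arising without 30m xNMJ replicate 7. The cause of these changes was not tested. Of 156 called genes taken by the naming rule or named beside it, 102 kept call and direction in every alternative. The replicate block gave 870 higher and 661 lower genes. With it, 67 of 80 genes of oxidative phosphorylation were lower. Of 18 denervation genes 4 were higher and 2 lower, and of 42 guidance genes 8 were higher and 0 lower. Libraries of the same number had a mean correlation of 0.081 (1 of 8 pairs over 0.1), against -0.011 for libraries of other numbers. Of the 8 xNMJ libraries 4 correlated best with their own number. Without xNMJ replicate 5 the mean was 0.029 (0 of 7 pairs over 0.1), against -0.0038 for other numbers. Here 3 of the 7 xNMJ libraries correlated best with their own number. These values do not settle whether the numbers stand for pairs. Shallow xNMJ libraries limit genes near the floor of 3 counts.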
